A study of Equus caballus with 6 samples.

Results

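Ligands of the epidermal growth factor (EGF) family and the ErbB receptors they bind were measured in the inner cell mass (ICM) and the trophectoderm (TE) of horse blastocysts. Of 10 gene symbols looked up (EREG, HBEGF, AREG, EGF, BTC, TGFA, EGFR, ERBB2, ERBB3 and ERBB4), 5 name a row of the 12270 in the deposited table: the ligands EREG and HBEGF and the receptors EGFR, ERBB2 and ERBB3. A sixth row, listed as LOC100050528, carries a number that RefSeq (assembly TB-T2T) lists as the gene ID of AREG. It is described beside the others and is outside the counts of the 5. The other 4 (EGF, BTC, TGFA and ERBB4) were not analysed here. All 5 rows passed the filter of at least 1 RPKM (reads divided by gene length in kilobases and by depth) in at least 3 libraries and were tested. The AREG row did not pass it.

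The embryos were day 8 (D8) horse blastocysts produced in vivo by superovulated mares. The ICM group holds 3 libraries (15, 22 and 25) and the TE group 3 (16, 23 and 24), each made from the tissue of an individual blastocyst. Both tissues went through Pronase, a protease mix. TE was then taken mechanically, and ICM was freed of outer cells by immunosurgery, so tissue and method of isolation cannot be told apart for any gene here. The labels give no strain, age or mare, and no number ties an ICM to a TE, so the spread is that between these libraries. RNA was amplified as cDNA before sequencing, and the table holds 6526212 to 10686659 reads per library. The tissue labels were checked against markers. The 7 TE markers in the table summed to 141 to 181 RPKM in TE and 38.6 to 61.8 in ICM, and the 7 epiblast markers to 163 and 168 in ICM 22 and 15. ICM 25 stood apart from the other ICM libraries. Its epiblast sum of 68.1 RPKM lay within the TE libraries' 57.5 to 81.6, and its hypoblast sum of 16.2 (5 genes) below their 19.5 to 27.3. Of these 5, GATA4, GATA6, FOXA2 and HNF4A were below every TE library. PDGFRA, at 6.14 RPKM, was above every TE library (at most 2.58). POU5F1, at 36 RPKM in ICM 25 and 33.2 to 53.6 in TE, made up most of that epiblast sum. Some other epiblast markers in ICM 25 stayed above every TE library. NANOG was at 1.75 RPKM against at most 0.157, GDF3 at 1.44 against at most 0.0699 and KLF4 at 8.09 against at most 2.22. SOX2 was at 0.444 where the TE libraries are listed at 0. The remaining markers fell within the TE range, DPPA4 at 11.3 RPKM against 9.83 to 16.8 and LIN28A at 9.12 against 8.85 to 12.1. Of the fibroblast and cumulus markers 2 of 7 have rows, COL1A2 and AMHR2, which summed to 9.88, 6.27 and 1.71 RPKM in ICM 15, 22 and 25 and at most 0.0805 in TE; of the blood markers 2 of 6 have rows, at 0.324 to 1.57 RPKM in all libraries. Each member is therefore also given without ICM 25. As tissue pieces were sequenced in bulk, fewer cells of a type and less RNA per cell cannot be told apart.

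EGF family ligands are made as membrane proteins with an EGF-like domain outside the cell, from which proteases of the ADAM family release the soluble ligand. EGFR and ERBB4 bind ligand and signal as kinases, ERBB2 binds no ligand and acts as a partner, and ERBB3 binds neuregulins but has a weak kinase and relies on its partner. Receptor pairs pass the signal through adaptors to the RAS-ERK and PI3K-AKT pathways. HB-EGF, the product of HBEGF, is known for its part in the attachment of mouse and human blastocysts to the uterus, and epiregulin (EREG) and amphiregulin (AREG) are made in the ovarian follicle in response to luteinizing hormone.

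EGFR was the member that differed between the tissues. It stood at 4.63, 4.36 and 5.30 RPKM in ICM 15, 22 and 25 and at 10.9, 12.9 and 11.1 RPKM in TE 16, 23 and 24. All TE libraries lay above all ICM libraries, and ICM 25 lay close to the other ICM libraries. The mean level was 4.76 ± 0.488 RPKM in ICM and 11.6 ± 1.12 in TE (SD, n = 3 each), 2.44-fold higher in TE. On the log2(RPKM + 1) scale the difference, ICM minus TE, was -1.13 (SE 0.23, 95% interval -1.64 to -0.62, limma adjusted p = 0.047). EGFR was thus the only 1 of the 5 genes called, that is with a limma adjusted p below 0.05 over all 9436 genes tested. In that fit 0.933% of genes passed with TE higher and 0.933% with ICM higher. Libraries did not overlap, with TE higher, for 17.8% of all genes tested, and with ICM higher for 6.81%, so EGFR shares this property with many genes and no member had the reverse. The exact permutation test over the 6 libraries gave p = 0.1 (two-sided), the smallest that 3 against 3 allows.

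The call of EGFR lay at the edge of the threshold. Its limma adjusted p was 0.054 with a pseudocount of 0.1, 0.06 with no filter, 0.08 with median-of-ratios scaling, 0.092 with quantile normalization and 0.055 with voom on the reads, and without TE 16, 23 or 24 it was 0.22, 0.31 and 0.20. Without ICM 15 and 22 it was 0.11 and 0.089, and without ICM 25 it was 0.0089. With library weights it was 0.0086, and with a filter of 5 RPKM 0.048. The direction held throughout, with a log2 difference between -1.27 and -0.97 over the 13 alternatives. The median log2 difference of all genes tested was -0.15, and -0.03 with either rescaling. In the authors' deposited table EGFR has a ratio of ICM to TE of 0.41 and a DESeq adjusted p of 0.000334. There 5.96% of the 12269 rows with an adjusted p pass 0.05 with TE higher and 10.7% with ICM higher. TE markers, as given above, were also higher in TE libraries, and their part in the EGFR difference was not tested.

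**Figure D1:**
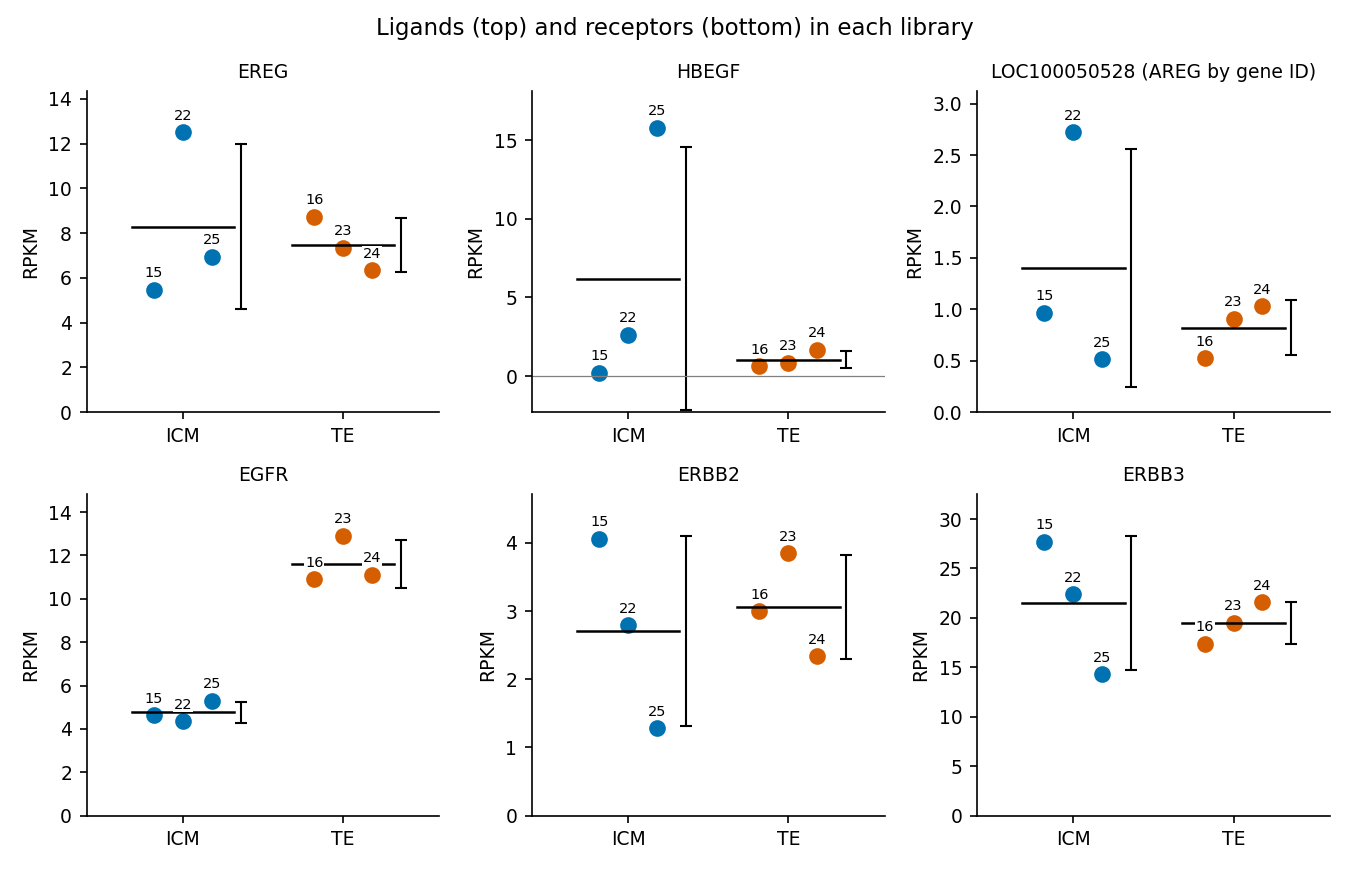
RPKM of each ligand (top row) and receptor (bottom row) in the 3 ICM and 3 TE libraries; points are libraries with their number, lines are means and bars SD. EGFR is the gene whose tissues do not overlap, and HBEGF ranges from 0.202 to 15.8 RPKM within ICM.

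The other receptors showed no difference that the test called. ERBB3 had the highest mean level of the members in both tissues, though HBEGF exceeded it in ICM 25. It was at 27.7, 22.4 and 14.3 RPKM in ICM 15, 22 and 25 and at 17.4, 19.5 and 21.6 in TE 16, 23 and 24. The TE values lie inside the ICM range. The ICM mean was 21.5 ± 6.79 RPKM and the TE mean 19.5 ± 2.10 (a log2 difference of 0.09, SE 0.28, 95% interval -0.55 to 0.73, limma adjusted p = 0.91), above 87.1% and 84.5% of all rows. Leaving out ICM 25, the lowest library, gave 0.34, and leaving out ICM 15 gave -0.11, neither of them called (limma adjusted p = 0.27 and 0.88).

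ERBB2, the partner receptor, was low. It was at 4.06, 2.79 and 1.28 RPKM in ICM 15, 22 and 25 and at 3.0, 3.85 and 2.34 in TE 16, 23 and 24. ICM 25 was again the lowest library, and the tissues overlapped. The ICM mean was 2.71 ± 1.39 RPKM and the TE mean 3.06 ± 0.758 (a log2 difference of -0.19, SE 0.33, 95% interval -0.94 to 0.56, limma adjusted p = 0.83). Without ICM 25 the sign turned, to 0.12 (limma adjusted p = 0.80). The exact permutation p was 0.7 for ERBB2 and 0.8 for ERBB3. The intervals of both receptors leave out the difference fitted for EGFR (-1.13) but include smaller changes in either direction. A missed threshold therefore does not show that the tissues are alike.

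Ratios within a library do not depend on scaling between libraries. ERBB3 exceeded EGFR in all 6 libraries, by 5.99, 5.14 and 2.69 times in ICM 15, 22 and 25 and by 1.6, 1.51 and 1.95 times in TE 16, 23 and 24. EGFR made up 12.7%, 14.8% and 25.5% of the summed RPKM of the 3 receptors in the ICM libraries and 34.8%, 35.6% and 31.6% in the TE libraries. All TE shares were above all ICM shares, with ICM 25 nearest to TE. The sum of the 3 receptors was 36.4, 29.5 and 20.8 RPKM in ICM 15, 22 and 25 and 31.3, 36.2 and 35 in TE 16, 23 and 24, so the receptors' total overlapped between tissues. The share of ERBB3 was 68.4% to 76.1% in ICM and 53.7% to 61.7% in TE, without overlap. As the shares are parts of the same sum, this is no result separate from the EGFR share. The RPKM of ERBB3 itself overlapped between tissues. ERBB2 took the smallest share in every library, 6.14% to 11.2%, and its shares overlapped between tissues.

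**Figure D2:**
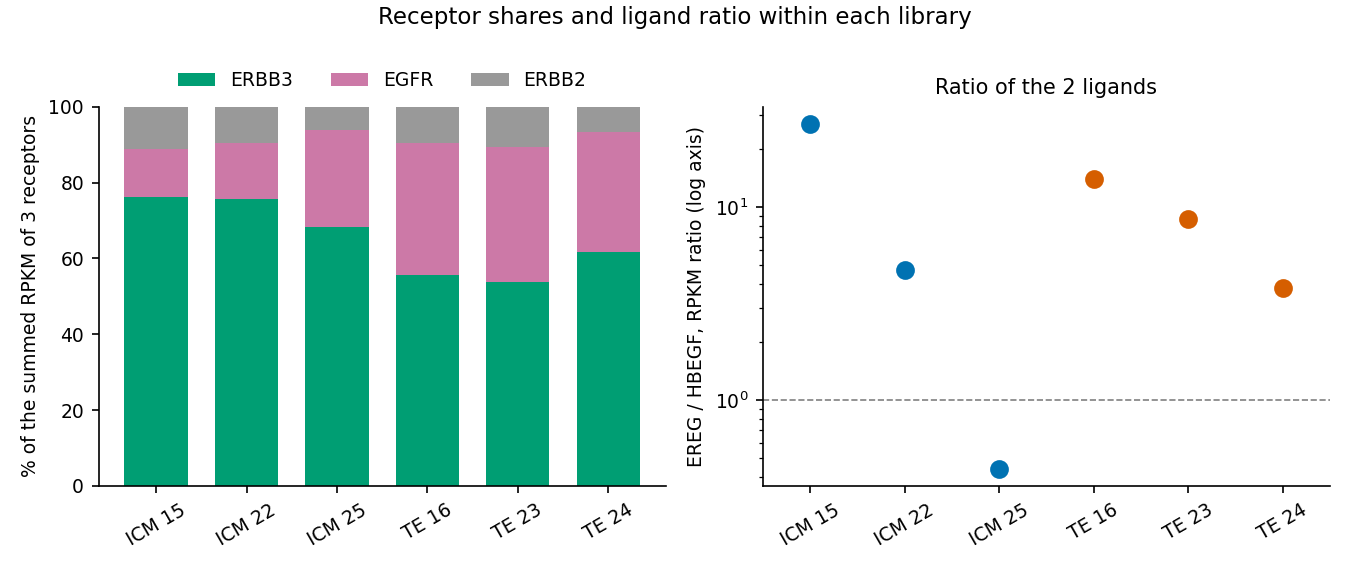
Left, the share of ERBB3, EGFR and ERBB2 in the summed RPKM of the 3 receptors in each library (%). EGFR holds 12.7% to 25.5% in ICM and 31.6% to 35.6% in TE. Right, the ratio of EREG to HBEGF in RPKM on a log axis, with a dashed line at equal levels: ICM spans 0.441 to 27.0, wider than TE.

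HBEGF was the most variable member. It was at 0.202, 2.62 and 15.8 RPKM in ICM 15, 22 and 25, from 4, 63 and 307 reads, and at 0.617, 0.841 and 1.66 RPKM in TE 16, 23 and 24, from 13, 13 and 34 reads. ICM 25 was 9.49 times above the highest TE library, ICM 22 also above it, and ICM 15 below every TE library. Between ICM 25 and ICM 15 the ratio was 78.0. The 4 reads of ICM 15 have an exact 95% Poisson interval of 1.09 to 10.2 reads and the 307 of ICM 25 one of 274 to 343, which cover counting error only. The spread of HBEGF between ICM libraries, an SD of 1.91 log2 units, was larger than that of 99.8% of the genes tested. In TE its SD was 0.37, above 87.4% of genes.

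The mean of HBEGF was 6.20 ± 8.39 RPKM in ICM and 1.04 ± 0.551 in TE, and ICM 25 supplied 84.8% of the ICM sum. The log2 difference was 1.07 with an SE of 0.78 and a 95% interval of -0.70 to 2.84 (limma adjusted p = 0.54), so it was not called. The exact permutation p was 0.5. Without ICM 25 the log2 difference fell to 0.07 (limma adjusted p = 0.95), and without ICM 15 it was 1.97 (limma adjusted p = 0.20). In the authors' deposited table the same row has a ratio of ICM to TE of 5.96 and a DESeq adjusted p of 1.39e-08, a call that the test used here did not make under any of its 12 alternatives for this gene. ICM 25 is also the library that stood apart in the epiblast and hypoblast markers, and the part of that in the HBEGF values was not tested.

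EREG varied less than HBEGF, and its tissues overlapped. It was at 5.47, 12.5 and 6.95 RPKM in ICM 15, 22 and 25 and at 8.73, 7.35 and 6.35 in TE 16, 23 and 24. ICM held both the highest and the lowest library, and the TE values fell between them. The ICM mean was 8.29 ± 3.68 RPKM and the TE mean 7.48 ± 1.2 (a log2 difference of 0.07, SE 0.31, 95% interval -0.63 to 0.78, limma adjusted p = 0.94, exact permutation p = 0.9). Without ICM 25 the difference was 0.15 (limma adjusted p = 0.81). The sign turned without ICM 22, to -0.23 (limma adjusted p = 0.64), and without TE 24, to -0.03 (0.99). The SD of EREG was 0.54 log2 units in ICM, above 64.3% of genes tested, and 0.2 in TE, above 54.3%. As for ERBB2 and ERBB3, a missed threshold does not show that the tissues are alike. EREG rests on 60 to 166 reads per library.

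The AREG row, LOC100050528, was low in both tissues. Its levels were 0.966, 2.72 and 0.517 RPKM in ICM 15, 22 and 25 and 0.525, 0.910 and 1.03 in TE 16, 23 and 24, from 10 to 65 reads. The tissues overlapped, with means of 1.40 ± 1.16 and 0.823 ± 0.265 RPKM (exact permutation p = 0.7). ICM 22 was the highest library for both this row and EREG. The rows are neighbours (coordinates as deposited, with no build stated): LOC100050528 lies on chromosome 3 from 61374032 to 61381837, EREG from 61440670 to 61445711 and EPGN, which encodes the ligand epigen, from 61507864 to 61512839. EPGN had 1 to 12 reads per library and 0.0886 to 1.36 RPKM. HBEGF lies on chromosome 14 (36492030 to 36499880), EGFR on chromosome 4 (24792509 to 24859778), ERBB2 on chromosome 11 (22684372 to 22706648) and ERBB3 on chromosome 6 (73770999 to 73784299).

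The rows on either side of HBEGF did not share its range. ANKHD1, the nearest on the lower side, was at 12.5, 12 and 11.4 RPKM in ICM 15, 22 and 25, and CYSTM1, the nearest on the upper side, at 38.7, 27.3 and 28.8. Both stayed within a narrow band in ICM, unlike HBEGF. Of the neuregulins NRG1 to NRG4, ligands of ERBB3 or ERBB4, NRG2 and NRG4 have rows. Both were below the filter, with at most 1.08 and 0.761 RPKM in any library. NRG1 and NRG3 have no row by symbol, so their levels are not known here. ERBB3 was at 14.3 to 27.7 RPKM, and the neuregulin rows near or below 1 RPKM beside it leave out NRG1 and NRG3.

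The order of the members by mean level differed between the tissues. In TE it was ERBB3, EGFR, EREG, ERBB2, HBEGF and the AREG row. In TE neighbours in this order had ranges that did not overlap, except HBEGF (1.04 RPKM) and the AREG row (0.823 RPKM). In ICM it was ERBB3, EREG, HBEGF, EGFR, ERBB2 and the AREG row. Among neighbours in the ICM order, the ranges overlapped for EREG with HBEGF, HBEGF with EGFR, and ERBB2 with the AREG row. The ICM range of HBEGF, 0.202 to 15.8 RPKM, also overlapped those of ERBB3, ERBB2 and the AREG row, so its place in that order is not settled. EREG exceeded HBEGF by 27.0 and 4.75 times in ICM 15 and 22 and by 14.1, 8.74 and 3.82 times in TE 16, 23 and 24. In ICM 25 the ratio was 0.441, the only library where HBEGF was the more abundant ligand.

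Across the 6 libraries, HBEGF and ERBB2 moved in opposite directions (Pearson r = -0.93 of log2(RPKM + 1)) and HBEGF and ERBB3 likewise (r = -0.71). These points share ICM 25, with the highest HBEGF and the lowest ERBB2 and ERBB3. The pair EREG and HBEGF had r = 0.14, and EGFR had r between -0.35 and 0.20 with the other 4. Among the other 9435 genes tested, the profiles most like that of HBEGF over the 6 libraries were those of PDK1, a kinase that restrains pyruvate dehydrogenase (r = 0.991), SAT1, which acetylates polyamines (r = 0.990), and the crystallin gene CRYBA1 (r = 0.989). PDK1 was at 4.0, 7.94 and 14.9 RPKM in ICM 15, 22 and 25 and at 5.30, 5.78 and 6.09 in TE 16, 23 and 24, with ICM 25 highest, as for HBEGF.

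For EGFR the most alike were FAM114A2 (r = 0.998), SH3D19, an adaptor with SH3 domains (r = 0.997), and TBC1D30 (r = 0.997). SH3D19 was at 6.08, 5.87 and 7.02 RPKM in ICM 15, 22 and 25 and at 12.9, 13.8 and 12.2 in TE 16, 23 and 24, with no overlap. For EREG they were CDK14, COX17 and MAGEB16 (r = 0.979, 0.978 and 0.976), for ERBB2 MED24, DNAJC13 and TSPAN12 (r = 0.994, 0.992 and 0.990) and for ERBB3 MAPK4, DNAJB14 and DYRK1A (r = 0.997, 0.996 and 0.996). All of these are descriptions over 6 points, picked from 9435 genes.

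Genes that act around the receptors were read from the same fit. The 8 lists were other ligands, ligand processing, ligand-binding partners, adaptors and transducers, receptor inhibitors, receptor endocytosis, ERK response genes and other receptor tyrosine kinases. Of their genes 99 were tested, with 0 from the other ligands, whose rows were below the filter. Of these 99, 7 were called with ICM higher and 5 with TE higher. Over all 9436 genes tested, 0.933% were called with ICM higher and 0.933% with TE higher. The lists' total of 12 became 20 without ICM 25, 3 without ICM 22 and 0 without ICM 15 or any one TE library. Their median log2 difference was -0.04, beside -0.15 over all genes tested. The lists were drawn up with earlier results of these data known, and several ERK response genes and kinases had already been seen to differ.

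In ligand processing, which covers the ADAM sheddases, the iRhom cofactors and the rhomboid proteases, 0 of 10 genes tested were called by limma or by voom, 1 had an unadjusted p below 0.05, and the median log2 difference was -0.20. Of all genes tested, 16.9% had an unadjusted p below 0.05 (5.28% with ICM higher and 11.6% with TE higher). RHBDF1, which encodes the cofactor iRhom1 of the sheddase ADAM17, was at 3.27, 3.97 and 3.30 RPKM in ICM 15, 22 and 25 and at 1.78, 1.95 and 2.26 in TE 16, 23 and 24 (log2 difference 0.59, SE 0.23, limma adjusted p = 0.23). Its tissues did not overlap, though the test did not call it. The rhomboid protease gene RHBDL2 was lower, at 1.39 to 1.99 RPKM in ICM and 0.163 to 1.22 in TE (limma adjusted p = 0.36). ADAM17 and ADAM9, singled out after their values were seen, were both present: ADAM17 at 2.69 to 5.51 RPKM in ICM and 4.94 to 6.87 in TE, and ADAM9 at 53.7, 59.7 and 131 RPKM in ICM 15, 22 and 25 against 60.9 to 64.8 in TE. ICM 25 was the highest library for ADAM9, as it was for HBEGF and for other listed genes such as ITGB1 and SDC4.

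Ligand-binding partners include the tetraspanins, integrins and heparan sulfate proteoglycans that hold HB-EGF and related ligands at the cell surface. Of all genes tested, 0.933% were called higher in ICM. Of 5 partners tested, 1 was called, higher in ICM. It was the glypican GPC4, at 22.9, 20.3 and 2.64 RPKM in ICM 15, 22 and 25 and at 0.0198, 0.0541 and 0.205 in TE 16, 23 and 24 (log2 difference 3.49, SE 0.63, limma adjusted p = 0.036). The TE values come from 1, 2 and 10 reads, and voom called 0 of the 5. The call of GPC4 was lost in 6 of 12 alternatives. The syndecan SDC4 was at 16.5, 28.9 and 33.0 RPKM in ICM 15, 22 and 25 and at 9.21, 14.2 and 15.5 in TE 16, 23 and 24. Its tissues did not overlap, but it was not called (log2 difference 0.93, SE 0.32, limma adjusted p = 0.19). The other rows of this list were below the filter. Among them, the syndecan SDC2, named after its values were seen, was at 12.5, 9.32 and 0.891 RPKM in ICM 15, 22 and 25. In TE it was at most 0.698. CD81 and MUC4 were also higher in ICM without overlap, and CD44, ITGA3 and SDC1 overlapped.

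Of 14 receptor inhibitors tested, 1 was called, higher in ICM, beside 0.933% of all genes tested. PTPN12, a tyrosine phosphatase known to act on EGFR and ERBB2, was higher in the ICM group, at 23.1, 22.1 and 17.4 RPKM in ICM 15, 22 and 25 against 7.15, 6.09 and 7.55 in TE 16, 23 and 24 (log2 difference 1.46, SE 0.23, limma adjusted p = 0.027). It lay on the opposite side from EGFR, and its tissues did not overlap. Its call was lost in 5 of 13 alternatives. SOCS5, which promotes degradation of EGFR, was at 1.6 to 3.60 RPKM in ICM and 0.979 to 2.14 in TE (limma adjusted p = 0.46). ERRFI1, an inhibitor of the EGFR kinase named after its values were seen, was at 15.5, 38.1 and 53.7 RPKM in ICM 15, 22 and 25 and at 24.6, 21.9 and 28.1 in TE 16, 23 and 24 (limma adjusted p = 0.73). Its ICM libraries fall in the order of HBEGF, as do those of other listed genes such as ADAM17, SDC4 and CD2AP.

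**Figure D3:**
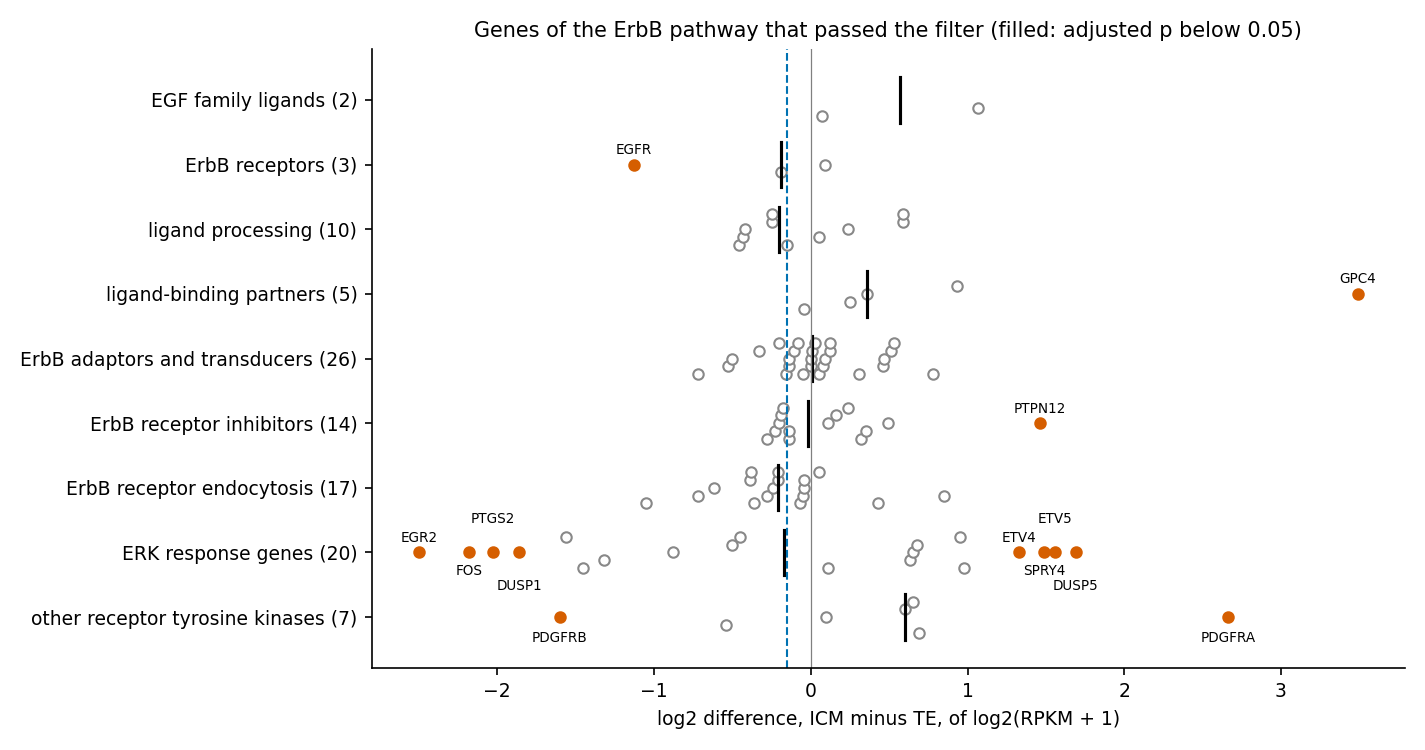
Log2 difference (ICM minus TE, of log2(RPKM + 1)) of every tested gene of the family and of the pathway lists, with the number tested in brackets; black bars are list medians, the dashed line is the median of all genes tested (-0.15), and filled points have a limma adjusted p below 0.05. Called genes lie on both sides among ERK response genes, while adaptors and endocytosis genes have no filled point.

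Adaptors and transducers showed no call: 0 of 26 tested passed by limma or by voom, 0 had an unadjusted p below 0.05 (16.9% of all genes tested), and the median log2 difference was 0.0. GAB1, a docking adaptor of EGFR, was at 20.4 to 26.7 RPKM in ICM and 15.2 to 17.7 in TE (limma adjusted p = 0.30). Of 17 endocytosis genes 0 were called by limma or by voom, with 2 at an unadjusted p below 0.05, 1 in each direction, a share below the 16.9% of all genes tested. EPS8, an EGFR substrate, was lower in each ICM library (2.32 to 4.91 RPKM) than in each TE library (6.85 to 9.35), as EGFR was, but missed the threshold (log2 difference -1.05, SE 0.28, limma adjusted p = 0.11). SH3KBP1, which links the ubiquitin ligase CBL to endocytosis, was at 1.67 to 6.48 RPKM in ICM and 1.25 to 1.94 in TE (limma adjusted p = 0.30). Without ICM 25 both passed, EPS8 with a log2 difference of -1.27 (limma adjusted p = 0.012) and SH3KBP1 with 1.27 (0.017), and with library weights their limma adjusted p was 0.017 and 0.038.

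ERK response genes are known targets of the pathway, which other growth factor receptors also feed. Of 20 tested, 4 were called on each side, beside 0.933% of all genes tested on each side. The list's median log2 difference was -0.17. The immediate-early gene FOS was at 4.55, 17.9 and 8.07 RPKM in ICM 15, 22 and 25 and at 42.7, 34.6 and 56.0 in TE 16, 23 and 24 (log2 difference -2.18, limma adjusted p = 0.045). The zinc finger factor EGR2, the phosphatase DUSP1 and the prostaglandin synthase PTGS2 were the others called higher in TE, with log2 differences of -2.50, -1.86 and -2.03. SPRY4, DUSP5 and the ETS factors ETV4 and ETV5 were higher in ICM, with log2 differences of 1.49, 1.69, 1.33 and 1.56. Their limma adjusted p was 0.045, 0.047, 0.047 and 0.049. The list thus split by gene, with members on both sides in the same libraries. Calls were lost in 10 of 12 alternatives for DUSP5, 7 of 12 for ETV4 and ETV5 and 6 of 12 for SPRY4. On the TE side they were lost in 7 of 13 for FOS, 6 of 13 for EGR2 and 5 of 13 for DUSP1 and PTGS2.

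Other receptor tyrosine kinases gave a scale for the ErbB receptors. Of 15 listed, 12 have rows, and MET, AXL and DDR2 have none by symbol. Over all genes tested, 0.933% were called in each direction. Of 7 tested, PDGFRA was called with ICM higher (a log2 difference of 2.66, SE 0.46, limma adjusted p = 0.032) and PDGFRB higher in TE (-1.6, SE 0.24, limma adjusted p = 0.022). Calls were lost in 5 of 13 alternatives for PDGFRA and 5 of 12 for PDGFRB. In TE, no kinase of this list with a row reached the level of EGFR or ERBB3 in any library. The highest, FGFR1, chosen after its values were seen, was at 5.14 to 5.87 RPKM. In ICM, PDGFRA (6.14 to 18.7 RPKM) exceeded EGFR in all 3 libraries and FGFR1 (3.12 to 19.5 RPKM) in ICM 15 and 22, and ERBB3 was above both in every ICM library.

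**Figure D4:**
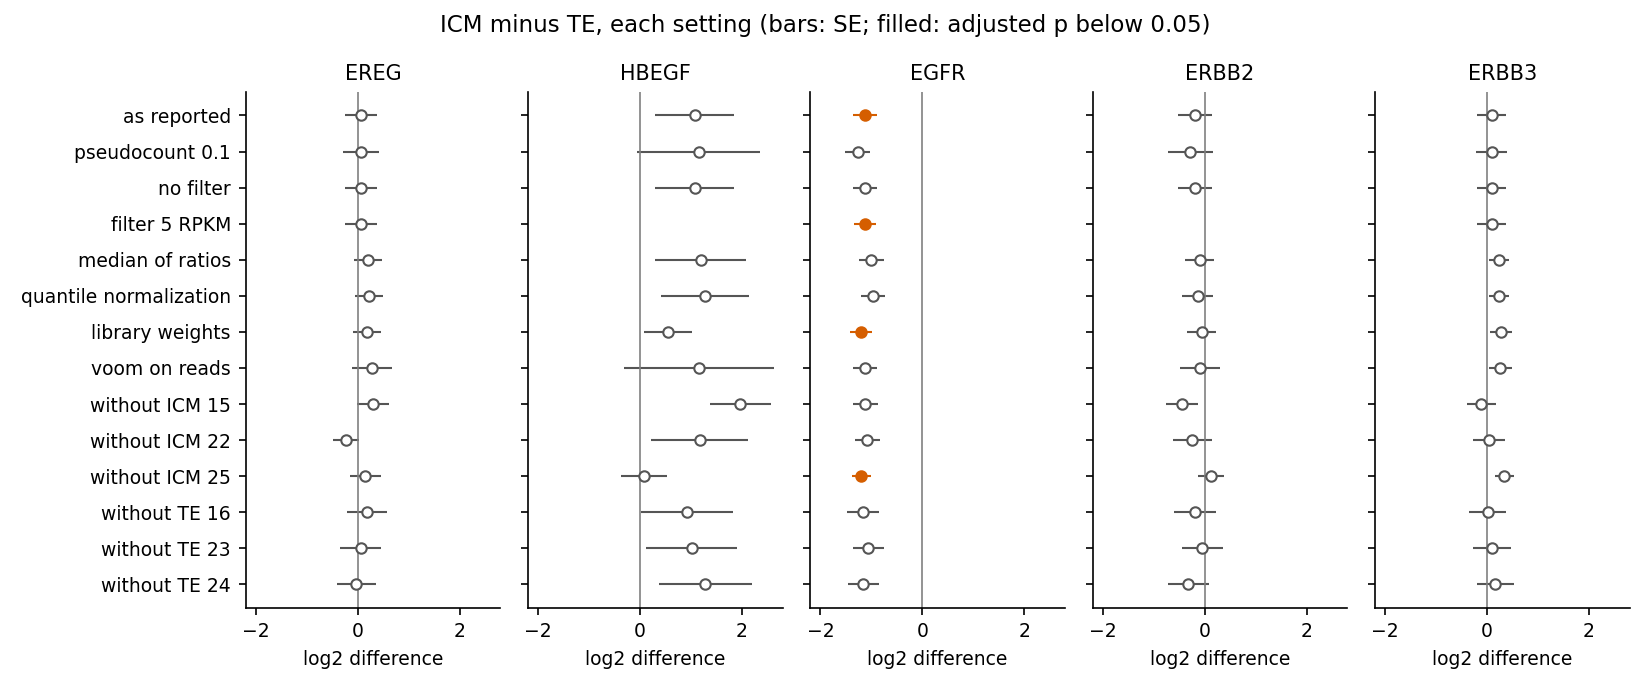
Log2 difference (ICM minus TE) of the 5 genes under the reported analysis and each alternative, with SE bars; filled points have a limma adjusted p below 0.05, and no point is drawn where a filter removes the gene. EGFR stays between -1.27 and -0.97, while HBEGF runs from 0.07 without ICM 25 to 1.97 without ICM 15.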

How the data were processed

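The authors deposited 1 table whose 6 library columns hold RPKM, per the file headers. Its columns of mean signal (baseMean), ratio (foldChange), log2 ratio, p-value and adjusted p-value come from the authors' DESeq analysis, per the file headers. The authors used FastQC and DESeq per the submitters' processing notes, and for the aligner, build, annotation and strand the sources used here give nothing. RPKM and baseMean gave back the reads: values of up to 1000 reads were whole within 0.001 for 100% in each library. These reads carry no molecular identifiers. Log2(RPKM + 1) of genes reaching 1 RPKM in 3 or more libraries was fitted with limma 3.58.1 (lmFit, eBayes with trend) in R 4.3.3, two-sided, with Benjamini-Hochberg adjustment at 0.05 over 9436 genes, and the code was tested on simulated data. Alternatives changed the pseudocount (0.1), filter (none, or 5 RPKM), scaling, library weights, test (voom) and libraries. Named are all members, all called genes and the 2 lowest p of each list, and the 3 profiles most like each member. One gene that this rule picks is not reported here. Members and lists were chosen with earlier results of these data known. The labels describe individual blastocysts and name no mare. The cDNA kit is Ovation, whose version the labels give in conflicting forms.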

Additional observations from a re-analysis of the deposited data

How the results depend on the processing

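No paired analysis was possible because no replicate number occurs in both tissues. The 176 genes called by limma became 112 with a pseudocount of 0.1, 114 without a filter, 760 with library weights and 81 with a 5 RPKM filter, and ranged from 0 (without TE 16, where 983 genes had an unadjusted p below 0.05) to 1086 (without ICM 25) with a library left out. Of the 5 family genes, the 1 called (EGFR) became 0 with a pseudocount of 0.1, without a filter, with median of ratios, with quantile normalization and with voom, and 0 to 1 with a library left out. The 12 pathway genes called became 7, 6 and 5 with a pseudocount of 0.1, no filter and a filter of 5 RPKM, and 0 to 20 with a library left out (0 without ICM 15 or any TE library, 3 without ICM 22, 20 without ICM 25). With a library left out, the log2 difference ran from -0.23 to 0.30 for EREG, from -0.45 to 0.12 for ERBB2 and from -0.11 to 0.34 for ERBB3. None of the 20 other genes picked by the naming rule changed sign under these alternatives. The cause of these changes was not tested. HBEGF has 4 reads in ICM 15 and the AREG row 10 in ICM 25, so ratios to these are imprecise.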
